A study of Mus musculus with 6 samples.

Results

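Transforming growth factor beta (TGF-beta) signalling was examined at 10 genes, the ligands Tgfb1, Tgfb2 and Tgfb3, the receptors Tgfbr1, Tgfbr2 and Tgfbr3, and the intracellular SMADs Smad2, Smad3, Smad4 and Smad7. They were taken by symbol from a table of 35709 genes, and all 10 were found. The libraries came from AML12 cells, a mouse hepatocyte line, transfected with Lipofectamine RNAiMAX and a small interfering RNA against Uhrf2 (siUhrf2, 3 libraries) or a control one (siCtrl, labelled wild type, 3 libraries) and profiled after 72 h. AML12 was established from mice carrying a transgene for human TGF-alpha, an EGF receptor ligand unrelated to TGF-beta, and both groups share that background. UHRF2 is an E3 ubiquitin ligase with a domain that binds modified cytosines in DNA, and the labels set its knock-down against the control siRNA. Gene positions are those of GENCODE M21 on GRCm38.

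TGF-beta ligands are secreted as latent complexes and, once released, bind a pair of kinase receptors. The type II receptor, Tgfbr2, takes up ligand and phosphorylates the type I receptor, Tgfbr1, which in turn phosphorylates Smad2 and Smad3. These join Smad4 and enter the nucleus, while Smad7, itself induced by the pathway, blocks the type I receptor. In liver the pathway is known for restraining hepatocyte growth and for driving matrix production by stellate cells.

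Library depth lay between 44.6 and 53.1 M estimated reads, and every member had at least 577 estimated reads in each library. Uhrf2 had 2942, 2805 and 2777 normalized counts in siUhrf2 libraries, against 8899, 9058 and 9018 in siCtrl libraries, so that 31.6% of the control level was left (limma adjusted p = 7.58e-11; exact two-sided permutation p = 0.10, the smallest that 3 against 3 libraries allow). Replicate 1 stood apart within both groups: chi-square per degree of freedom was 6.68 to 10.6 in pairs with it, and 2.95 and 3.84 in the pairs without it. Whether replicates were separate cultures is not in the labels, and p-values therefore cover the spread between these libraries alone, which may be technical. The 12 hepatocyte markers summed to 3053 to 3231 FPKM in siUhrf2 and 2578 to 2783 FPKM in siCtrl. Of the 7 tested, 3 rose (Krt8, Krt18 and Hnf4a), 2 fell (Trf and Serpina1a) and 2 did not pass. The share called was 71.4%, against 61.0% of all tested genes. Serpina1a reached the mean of 1 FPKM required for a test through siCtrl alone, at 0.914 FPKM in siUhrf2 and 2.07 FPKM in siCtrl. The higher sum in siUhrf2 lay mostly in the keratin genes Krt8 and Krt18. Krt8 averaged 1033 FPKM in siUhrf2 and 723 FPKM in siCtrl, and Krt18 1168 FPKM in siUhrf2 and 838 FPKM in siCtrl. Trf went the other way, with 804 FPKM in siUhrf2 and 1017 FPKM in siCtrl. Hnf4a averaged 85.5 FPKM in siUhrf2 and 81.2 FPKM in siCtrl, but Alb averaged 0.471 FPKM in siUhrf2 and 0.751 FPKM in siCtrl, and Ahsg was listed at 0. Among 12 stellate cell and fibroblast markers, 11 averaged under 1 FPKM, with Col3a1 at 0. The 12 together summed to 1.96 to 2.89 FPKM in siUhrf2 against 13.0 to 17.0 in siCtrl. Postn made up most of the siCtrl sum, at a mean of 12.8 FPKM, and averaged 0.716 FPKM in siUhrf2. Col1a1 was the larger part in siUhrf2, at a mean of 1.05 FPKM there and 0.842 FPKM in siCtrl. Endothelial markers summed to 2.23 to 3.39 FPKM in siUhrf2 and 2.95 to 3.41 in siCtrl, with 7 of 8 under 1 FPKM and Emcn at 0. Macrophage and leukocyte markers summed to 2.97 to 3.88 FPKM in siUhrf2 and 7.55 to 9.30 FPKM in siCtrl. Of these 8, 6 were under 1 FPKM, with Adgre1 and Clec4f at 0. Csf1r and Cd68 made up most of both sums. Csf1r averaged 1.42 FPKM in siUhrf2 and 3.83 FPKM in siCtrl, and Cd68 1.80 FPKM in siUhrf2 and 4.24 FPKM in siCtrl. Cholangiocyte markers were abundant, at 1416 to 1457 FPKM in siUhrf2 and 982 to 1015 in siCtrl, with Epcam at 0. The part of these marker shifts in the differences below was not tested.

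The receptors of the signalling complex moved in opposite directions after Uhrf2 knock-down, as did the ligands, while Smad2, Smad3 and Smad4, which carry the signal, did not pass the test. Of the 10 members, 7 changed at a limma adjusted p under 0.05, 4 higher and 3 lower in siUhrf2. Of the 11343 genes that averaged 1 FPKM or more and were tested, 61.0% passed, 29.9% higher and 31.1% lower, so the members' count is close to the background. The groups did not overlap in 8 members, 4 higher and 4 lower, where 66.7% of all tested genes had groups without overlap, 32.5% higher and 34.1% lower. The median log2 fold change was -0.01 over the members and -0.01 over all tested genes, and the median absolute change was 0.18 over the members and 0.19 over all tested genes. In bulk RNA, fewer cells of a kind and less RNA per cell cannot be told apart.

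**Figure D1:**
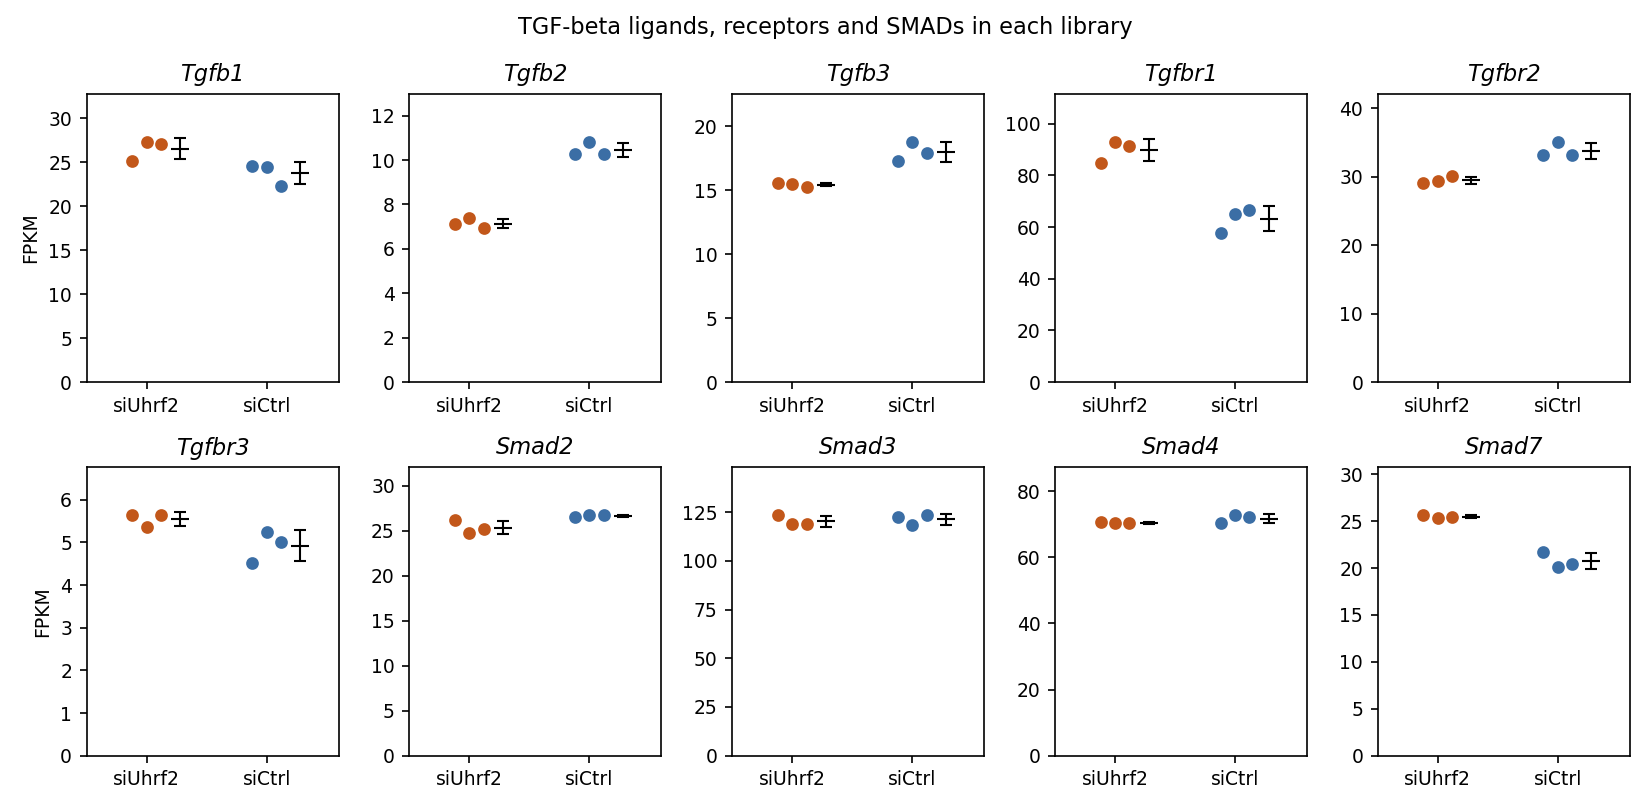
FPKM of each member in each library (points, replicates 1 to 3 from left to right, siUhrf2 left and siCtrl right) with the group mean and SD beside them. The siUhrf2 points lie above all siCtrl points for Tgfb1, Tgfbr1, Tgfbr3 and Smad7 and below them for Tgfb2, Tgfb3, Tgfbr2 and Smad2.

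Promoter sequence is shown for the receptor pair and for Tgfb1, because Tgfbr1 and Tgfb1 rose while Tgfbr2 fell and UHRF2 binds modified cytosines. The windows are the 250 bases before the start of transcription in RefSeq (GRCm38.p6), 5′ to 3′ on the gene's strand, with capitals marking CpG dinucleotides.
Tgfbr1 (chr4:47352972-47353221, plus strand): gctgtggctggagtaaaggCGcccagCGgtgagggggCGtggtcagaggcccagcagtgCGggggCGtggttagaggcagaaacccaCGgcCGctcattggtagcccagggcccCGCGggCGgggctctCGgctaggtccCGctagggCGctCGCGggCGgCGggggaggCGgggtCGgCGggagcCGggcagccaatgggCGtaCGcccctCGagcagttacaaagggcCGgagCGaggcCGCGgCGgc
Tgfbr2 (chr9:116175364-116175613, minus strand): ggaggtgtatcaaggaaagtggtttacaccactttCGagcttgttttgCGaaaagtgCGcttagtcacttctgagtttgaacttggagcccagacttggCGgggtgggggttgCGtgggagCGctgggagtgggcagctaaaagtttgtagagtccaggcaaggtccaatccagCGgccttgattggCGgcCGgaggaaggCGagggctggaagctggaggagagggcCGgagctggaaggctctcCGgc
Tgfb1 (chr7:25686752-25687001, plus strand): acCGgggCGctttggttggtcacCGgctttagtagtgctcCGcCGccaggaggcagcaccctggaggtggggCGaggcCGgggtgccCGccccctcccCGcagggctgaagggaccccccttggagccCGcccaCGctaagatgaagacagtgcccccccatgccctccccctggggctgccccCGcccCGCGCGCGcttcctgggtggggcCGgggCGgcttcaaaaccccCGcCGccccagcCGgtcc
The Tgfbr1 window held 29 CpG, the Tgfb1 window 21 and the Tgfbr2 window 12, where the median of 32851 RefSeq windows was 6. The GC box (GGGCGG, both strands) occurred 2 times in Tgfbr1, 5 times in Tgfb1 and 0 times in Tgfbr2, and 32.7% of all windows held it. The SMAD box (CAGAC, both strands) was found 1 time in Tgfbr2 and 0 times in the other printed windows, against 42.2% of all windows with at least 1. The AP-1 site (TGACTCA, both strands) was in 0 of these windows and in 4.46% of all windows. RefSeq windows were matched for 5 members, also including Tgfb2 and Smad3. The window of Tgfb2, which fell, had 8 CpG, 2 SMAD boxes and 0 GC boxes. That of Smad3, which did not pass the test, had 22 CpG, 0 SMAD boxes and 2 GC boxes, as many as Tgfbr1. Of the 250 bases of the Tgfb2 window, 167 are exonic in GENCODE M21, so it is not a plain upstream window. The window lies outside the Tgfb2 gene of GENCODE M21, so these bases belong to other annotation, counted on either strand. Tgfbr1 has another, internal window with 3 CpG, 1 SMAD box and 0 GC boxes. Methylation was not measured, and these letters are a description of sequence only.

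Tgfb1 (chr7:25687002-25705077, plus strand), the ligand most studied in fibrosis, rose slightly. It had 1515, 1673 and 1661 normalized counts in siUhrf2, against 1478, 1479 and 1346 in siCtrl. The lowest siUhrf2 library was just above the highest siCtrl library. The log2 fold change was 0.17 (SE 0.056, limma adjusted p = 0.018), a fold of 1.13 with a 95% interval of 1.04 to 1.23. The call was lost without siUhrf2 replicate 2 (adjusted p = 0.074), siUhrf2 replicate 3 (0.073) or siCtrl replicate 3 (0.090).

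Tgfb2 (chr1:186622792-186705989, minus strand), the ligand that depends most on the co-receptor Tgfbr3 for binding, fell the most of the 10. Its normalized counts were 632, 667 and 629 in siUhrf2 and 912, 969 and 917 in siCtrl. All siUhrf2 libraries were well below all siCtrl libraries, by more than the range within either group. The log2 fold change was -0.54 (SE 0.057, limma adjusted p = 9.28e-06), so that 0.689 times the control level remained, with a 95% interval of 0.632 to 0.752. Of all tested genes, 10.9% had a larger absolute change.

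Tgfb3 (chr12:86056745-86079041, minus strand) encodes the remaining ligand and fell by less. The siUhrf2 libraries held 2560, 2597 and 2565 normalized counts, against 2840, 3117 and 2957 in siCtrl. The siUhrf2 libraries lay close together and below the whole siCtrl range. Its log2 fold change was -0.21 (SE 0.041, limma adjusted p = 0.0011). Its locus overlaps that of Ttll5 on the opposite strand by 5149 bases, but the genes share 0 exonic bases. It shares 257 of its 3383 exonic bases with the opposite-strand transcript Gm48008, which averaged 0.00978 FPKM. The sources used here do not say whether counting used strand.

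Set against each other within a library, the ligands shifted toward Tgfb1. Per length, Tgfb1 averaged 26.5 ± 1.18 FPKM in siUhrf2 and 23.8 ± 1.29 in siCtrl (SD, n = 3 each), Tgfb3 15.5 ± 0.142 FPKM in siUhrf2 and 18.0 ± 0.764 in siCtrl, and Tgfb2 7.14 ± 0.218 FPKM in siUhrf2 and 10.5 ± 0.318 in siCtrl. Tgfb1 made up 52.6%, 54.4% and 54.9% of the summed ligand FPKM in siUhrf2, against 47.2%, 45.2% and 44.2% in siCtrl. Tgfb2 made up 14.9%, 14.7% and 14.1% in siUhrf2, against 19.7%, 20.03% and 20.4% in siCtrl. These shares do not depend on the scaling of libraries, and the groups did not overlap in either. The Tgfb3 share was 32.5%, 30.9% and 31.0% in siUhrf2 and 33.1%, 34.8% and 35.5% in siCtrl. The summed ligand level was 47.8, 50.2 and 49.3 FPKM in siUhrf2 and 52.2, 54.1 and 50.5 FPKM in siCtrl. In FPKM the siUhrf2 sums were lower, with the highest of them just under the lowest siCtrl sum. Unlike the shares, these sums depend on the scaling of libraries, and so narrow a gap was not tested under other scalings.

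Tgfbr1 (chr4:47353222-47414931, plus strand), the type I receptor kinase that phosphorylates Smad2 and Smad3, rose the most of the members. It had 10341, 11543 and 11375 normalized counts in siUhrf2, against 7036, 8008 and 8156 in siCtrl. Every siUhrf2 library was above every siCtrl library, and replicate 1 was the lowest of both groups. The log2 fold change was 0.52 (SE 0.063, limma adjusted p = 0.00011), or 1.43-fold with a 95% interval of 1.30 to 1.58. Of all tested genes, 11.5% changed by more in absolute terms. Tgfbr1 and Tgfb2 were the 2 members that also passed when tested against a change of 1.2-fold (adjusted p = 0.013 and 0.0029), which 1691 of all tested genes did.

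Tgfbr2 (chr9:116084293-116175360, minus strand), the type II receptor that binds ligand first, fell. Normalized counts were 8172, 8417 and 8627 in siUhrf2 and 9307, 9958 and 9365 in siCtrl. The groups did not overlap. Its log2 fold change was -0.18 (SE 0.036, limma adjusted p = 0.0010), a fold of 0.881 with a 95% interval of 0.834 to 0.931. Tgfbr1 therefore stood at 2.92, 3.17 and 3.04 times the FPKM of Tgfbr2 in siUhrf2, against 1.75, 1.86 and 2.01 times in siCtrl. The mean ratio was 3.04 ± 0.122 in siUhrf2 and 1.87 ± 0.133 in siCtrl (SD, n = 3 each), 1.63 times as high in siUhrf2.

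Tgfbr3 (chr5:107106570-107289629, minus strand), or betaglycan, a co-receptor without a kinase that presents ligand to Tgfbr2, was the lowest of the 10 members and still above 1 FPKM. It had 754, 730 and 768 normalized counts in siUhrf2, against 603, 706.5 and 672 in siCtrl. The groups were separate, with siCtrl replicate 1 the lowest. The log2 fold change was 0.19 (SE 0.068, limma adjusted p = 0.032). This call was the least stable of the 7: it was lost without siUhrf2 replicate 1 (adjusted p = 0.056) or 3 (0.10), without siCtrl replicate 1 (adjusted p = 0.12, log2 fold change 0.12) or 3 (0.058), and without replicate 1 of both groups, where the log2 fold change was 0.12 (adjusted p = 0.14).

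**Figure D2:**
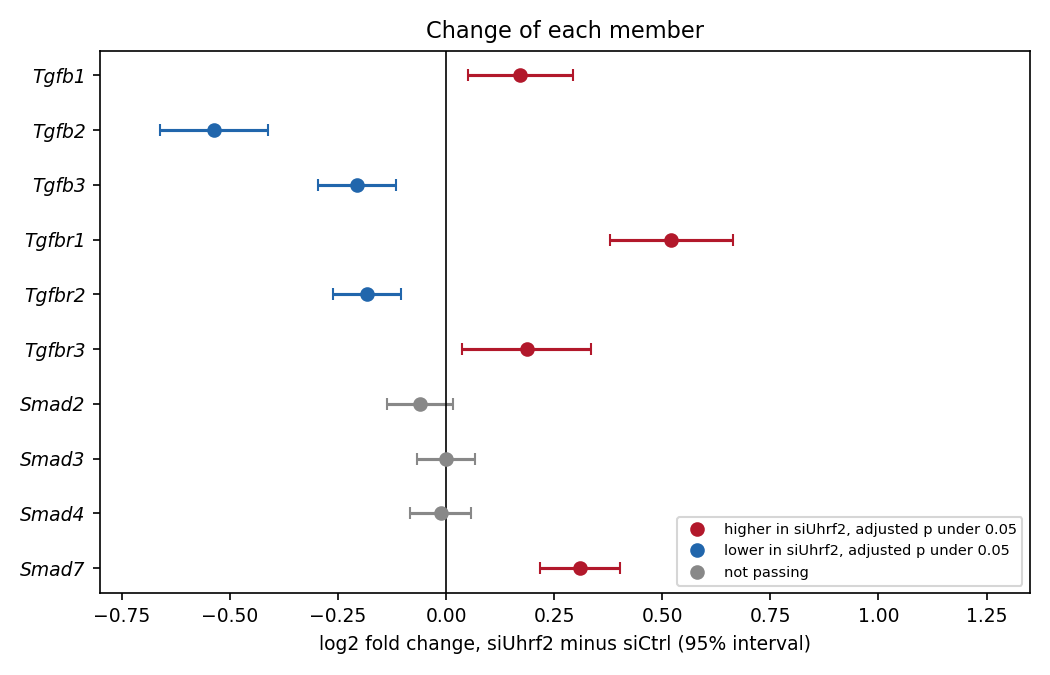
Log2 fold change of each member, siUhrf2 minus siCtrl, from limma on log2(normalized count + 1), with 95% intervals (n = 3 each). Red members were called higher, blue ones lower and grey ones did not pass; Tgfbr1 at 0.52 and Tgfb2 at -0.54 lie farthest from 0.

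The SMADs that carry the signal had nearly the same levels in both groups. Smad3 (chr9:63646767-63757994, minus strand), the more abundant of the receptor-regulated pair, had 8576, 8385 and 8411 normalized counts in siUhrf2 and 8502, 8266 and 8591 in siCtrl. The ranges overlapped almost fully, with a log2 fold change of 0.00082 and a 95% interval of the fold of 0.955 to 1.05 (limma adjusted p = 0.98). Smad4 (chr18:73639009-73703780, minus strand), the common partner of all receptor-regulated SMADs, had 4599, 4656 and 4658 normalized counts in siUhrf2 and 4561, 4765 and 4707 in siCtrl. Its ranges also overlapped, with a fold of 0.992 and an interval of 0.944 to 1.04 (adjusted p = 0.76). Smad2 (chr18:76241580-76310963, plus strand), the other receptor-regulated SMAD, had 2849, 2735 and 2793 normalized counts in siUhrf2 and 2885, 2930 and 2918 in siCtrl, with all siUhrf2 libraries below siCtrl. The difference did not pass the test, with a fold of 0.959 and an interval of 0.909 to 1.01 (adjusted p = 0.16). A p above the threshold does not show that these levels were equal, and changes within these intervals could not be told from none.

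Smad7 (chr18:75367529-75395935, plus strand), the inhibitory SMAD and itself a feedback target of the pathway, rose. It had 2025, 2037 and 2044 normalized counts in siUhrf2, against 1709, 1601 and 1615 in siCtrl. The siUhrf2 libraries were nearly identical and all above siCtrl. The log2 fold change was 0.31 (SE 0.042, limma adjusted p = 6.34e-05), or 1.24-fold with a 95% interval of 1.16 to 1.32. Relative to Smad3, Smad7 stood at 0.208, 0.214 and 0.214 in siUhrf2 and 0.177, 0.170 and 0.165 in siCtrl, in FPKM.

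**Figure D3:**
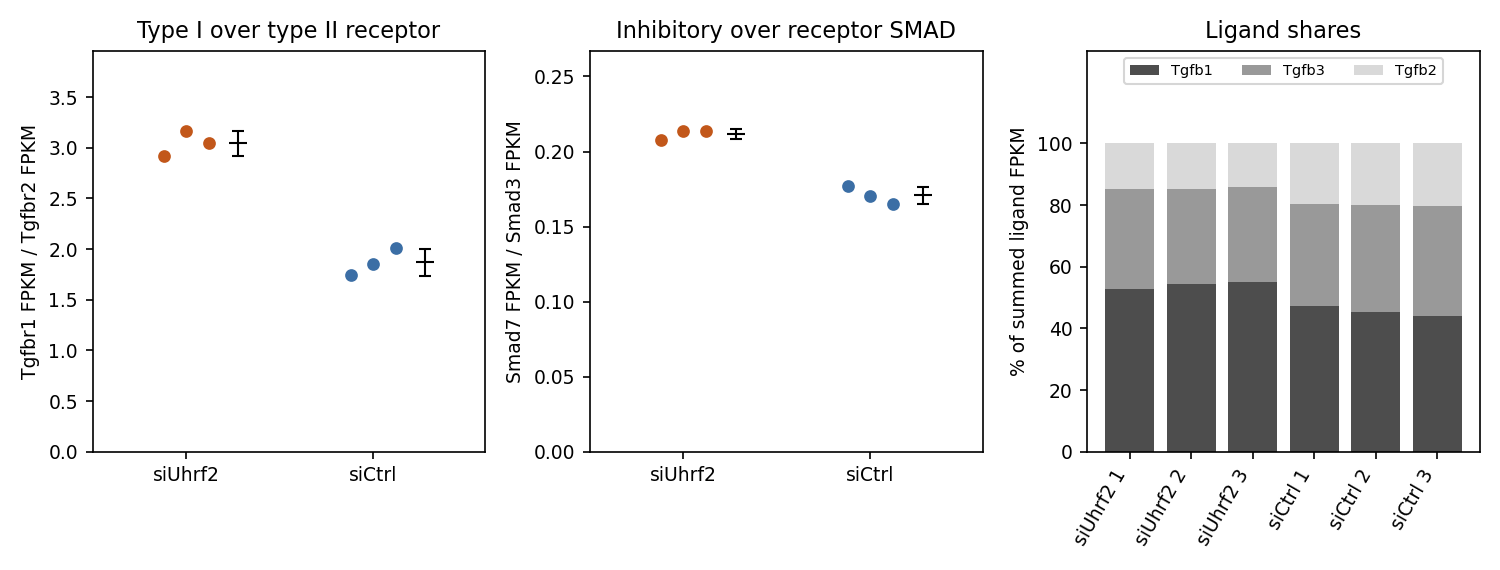
FPKM ratios within each library: Tgfbr1 over Tgfbr2 (left), Smad7 over Smad3 (middle), each with points for replicates 1 to 3 and the mean and SD, and the share of each ligand in the summed ligand FPKM (right, bars stacked to 100%). The receptor ratio lies between 2.92 and 3.17 in siUhrf2 and between 1.75 and 2.01 in siCtrl, and the Tgfb1 share is larger in every siUhrf2 library.

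The order of levels, per length, changed at few places. In siUhrf2 it ran from Smad3 (120.4 ± 2.72 FPKM) over Tgfbr1 (89.8 ± 4.40), Smad4 (70.4 ± 0.228), Tgfbr2 (29.5 ± 0.528), Tgfb1, Smad7 (25.5 ± 0.150), Smad2 (25.3 ± 0.752), Tgfb3 and Tgfb2 to Tgfbr3 (5.55 ± 0.156). The ranges of Tgfb1 and Smad7 overlapped there, as did those of Smad7 and Smad2, so that these neighbours cannot be ordered. In siCtrl it ran from Smad3 (121 ± 2.78 FPKM) over Smad4 (71.7 ± 1.31), Tgfbr1 (63.3 ± 4.76), Tgfbr2 (33.8 ± 1.15), Smad2 (26.7 ± 0.103), Tgfb1, Smad7 (20.7 ± 0.831), Tgfb3 and Tgfb2 to Tgfbr3 (4.93 ± 0.370; SD, n = 3 each). Every neighbouring pair was separate in siCtrl. Tgfbr1 stood above Smad4 in all siUhrf2 libraries and below it in all siCtrl libraries. Without replicate 1 of both groups, the log2 fold changes were 0.24 for Tgfb1, -0.54 for Tgfb2, -0.23 for Tgfb3, 0.50 for Tgfbr1, -0.18 for Tgfbr2 and 0.34 for Smad7, and all of these still passed.

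**Figure D4:**
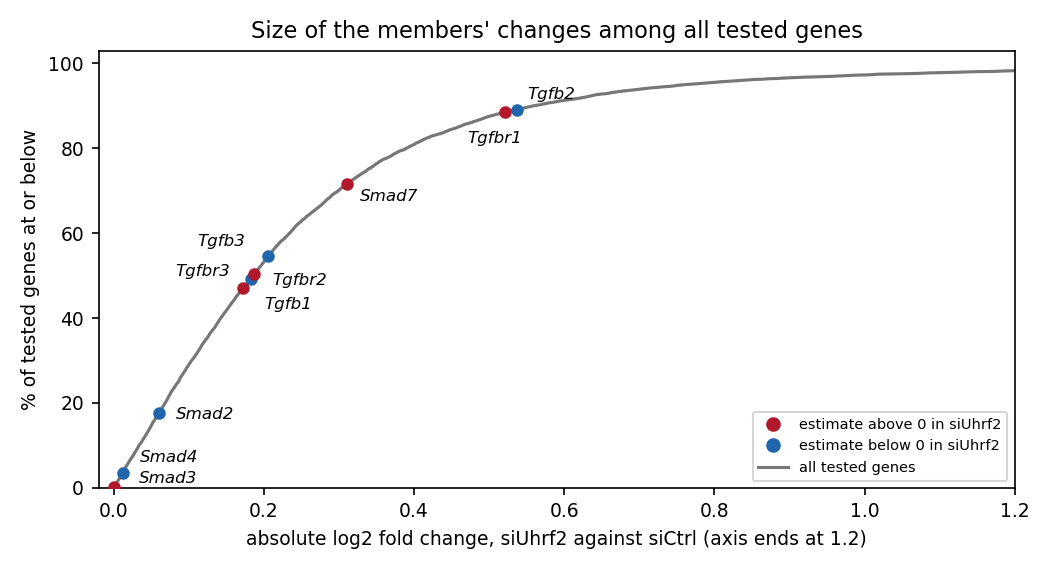
Share of all tested genes (y axis, %) whose absolute log2 fold change is at or below the value on the x axis, with the members marked on the curve in red where their estimate is above 0 and in blue where it is below. Tgfb2 and Tgfbr1 lie near the upper end, where 10.9% and 11.5% of tested genes changed by more, and Smad3 and Smad4 near 0.

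Of 17 genes that release or hold latent ligand, 11 were tested, 3 rose, 3 fell and 5 did not pass (median log2 fold change 0.00). The share called was 54.5% in this list, 57.1% among the co-receptors and receptor regulators, 60% among genes of SMAD turnover and 60% among nuclear partners, all close to the 61.0% of all tested genes. The latent TGF-beta binding protein genes Ltbp4 and Ltbp1 rose by 0.51 and 0.43 on the log2 scale, and the integrin gene Itgb5 by 0.37. Itgav, whose integrin subunit binds latent TGF-beta, fell by 0.46, and Bmp1, a protease that cleaves latent TGF-beta binding proteins, by 0.25. Lrrc32, which anchors latent ligand on cells, had a log2 fold change of -1.29 and passed the filter on low values through siCtrl alone, at 0.597 FPKM in siUhrf2 and 1.49 FPKM in siCtrl.

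Among co-receptors and receptor regulators, 14 of 17 were tested, of which 5 rose, 3 fell and 6 did not pass (median -0.05). Pmepa1, a pathway target that limits SMAD activation, had 7261, 7195 and 7351 normalized counts in siUhrf2, against 5467, 5369 and 5047 in siCtrl, and its log2 fold change was 0.46 (limma adjusted p = 9.55e-07). Cd109, an inhibitory co-receptor, rose by 0.76, Tab1, a partner of the TAK1 kinase, by 0.16, Traf6, a ubiquitin ligase upstream of TAK1, by 0.12 and Strap by 0.10. In turn Dab2, an adaptor of receptor trafficking, fell by 0.34, the TAK1 gene Map3k7 by 0.20 and Fkbp1a, which keeps the type I receptor inactive, by 0.14. Without siCtrl replicate 1, 5 genes of this list were called in place of 8. The Tab1 call was lost there (log2 fold change 0.10, adjusted p = 0.057), as were those of Fkbp1a (0.082), also lost without siCtrl replicate 2 (0.061), and Traf6 (0.15). The log2 fold change of Fkbp1a was -0.08 without siUhrf2 replicate 1 and -0.06 without replicate 1 of both groups, where those of Tab1 and Traf6 were 0.09 and 0.08, and these 3 did not pass without replicate 1 of both groups. Traf6 and Strap lost their calls without several single libraries, at adjusted p of up to 0.15 and 0.081.

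Of 15 genes of SMAD turnover and transport, all tested, 4 rose, 5 fell and 6 did not pass (median 0.00). Rnf111, the ubiquitin ligase that removes Smad7, changed by -0.36 (limma adjusted p = 6.12e-06), and the deubiquitinase genes Usp11 and Usp15 by -0.52 and 0.26. Nedd4l, a ubiquitin ligase for activated Smad2 and Smad3, changed by -0.19. Of the others, Wwp1, Stub1 and the importin gene Ipo7 changed by 0.12, 0.16 and 0.16, and the deubiquitinase genes Usp4 and Usp9x by -0.15 and -0.17. Wwp1 and Usp9x each lost the call without 4 of the 6 libraries in turn, at adjusted p of up to 0.15 and 0.11, and the log2 fold change of Wwp1 was 0.08 without siCtrl replicate 2. Of 15 nuclear partners, all tested, 3 rose, 6 fell and 6 did not pass (median -0.08). Jun changed by -0.87, Tfe3 by -0.22, Runx1 by 0.34, Tob1 by 0.25 and the corepressor gene Ski by 0.14, while Foxh1 changed by -1.75 and passed the filter through siCtrl alone, at 0.506 FPKM in siUhrf2 and 1.73 FPKM in siCtrl.

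Of the SMADs linked to the BMP branch, Smad1 and Smad5, which carry its signal, and the inhibitory Smad6 fell, with log2 fold changes of -0.25, -0.29 and -0.25, and Smad9 was under 1 FPKM. Whether these changes differ from those of Smad2 and Smad3 was not tested. All 3 tested genes of this list were called, 100% against 61.0% of all tested genes. The Smad6 groups overlapped, and its call was lost without siUhrf2 replicate 1 (adjusted p = 0.073) or 3 (0.081) and without siCtrl replicate 1 (0.099) or 2 (0.053). Its log2 fold change was -0.16 without siCtrl replicate 1 and -0.13 without replicate 1 of both groups (adjusted p = 0.14). Of 15 genes of the activin and nodal branch, which also signals through Smad2 and Smad3, 8 were tested, 2 rose, 4 fell and 2 did not pass (median -0.16). The share called was 75% in this branch, against 61.0% of all tested genes. The ligand gene Gdf11 changed by -0.43 and the receptor genes Acvr1b and Acvr2a by -0.23 and -0.23, and the inhibitor gene Fst, which passed the filter through siCtrl alone, by -0.87, at 0.908 FPKM in siUhrf2 and 1.66 FPKM in siCtrl. Acvr2b rose by 0.33 and Inhba, an activin subunit gene, by 0.41. The Inhba call was lost without siUhrf2 replicate 1 (adjusted p = 0.075) or 3 (0.078) and without siCtrl replicate 2 (0.051) or 3 (0.060), and that of Acvr2b without replicate 1 of both groups (log2 fold change 0.24, adjusted p = 0.072).

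Most tested TGF-beta target genes changed, in both directions. Of 29, 20 were tested, 13 fell, 5 rose and 2 did not pass, which is 90% called against 61.0% of all tested genes, and the median log2 fold change was -0.33 against -0.01. The list was drawn up with earlier results of these libraries known, so it is no independent evidence of a direction or of a larger share changed. The basement membrane collagen gene Col4a2 had 8732, 9145 and 9418 normalized counts in siUhrf2, against 17022, 18069 and 17529 in siCtrl (log2 fold change -0.95, limma adjusted p = 5.11e-09). Its partner Col4a1 changed by -0.51 and the scaffold gene Nedd9 by -0.69. Of other targets, named after their values were seen, the matricellular gene Ccn2 had 8644, 8580 and 8976 normalized counts in siUhrf2, against 14355, 11966 and 12859 in siCtrl, with no overlap between groups (log2 fold change -0.58, limma adjusted p = 2.81e-05). The cell cycle inhibitor gene Cdkn1a changed by -0.45 and the fibronectin gene Fn1 by -0.40, although the Fn1 call was lost without the filter on low values (adjusted p = 0.084) and with the replicate number as a block (0.097). The transcription factor genes Snai2, Zeb1 and Zeb2 changed by -0.34, -0.28 and -0.31. Postn and Il11 had the largest falls of the 20, -4.24 and -2.84, and Postn passed the filter through siCtrl alone, at 0.716 FPKM in siUhrf2 and 12.8 FPKM in siCtrl. Tgm2 and Cdh2 were the 2 that did not pass (-0.06 and -0.04).

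The 5 targets that rose were Hmga2, Bhlhe40, Junb, Cdkn2b and Klf10. Hmga2, a chromatin architectural gene, had 6333, 6873 and 7013 normalized counts in siUhrf2, against 3801, 3555 and 3451 in siCtrl (log2 fold change 0.90, limma adjusted p = 3.93e-08). Bhlhe40 rose by 0.75, Junb by 0.63, Cdkn2b, which encodes the CDK inhibitor p15, by 0.53 and Klf10, a TGF-beta-inducible zinc finger gene, by 0.34. Smad7 and Pmepa1, feedback targets listed elsewhere, also rose, while Skil, another feedback target, had 4712, 4748 and 4801 normalized counts in siUhrf2 against 4427, 4695 and 4723 in siCtrl and did not pass (adjusted p = 0.30). Of the 9 targets under 1 FPKM, Acta2, Tagln, Col1a1, Col1a2 and Col3a1 are matrix or contractile genes of activated stellate cells.

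**Figure D5:**
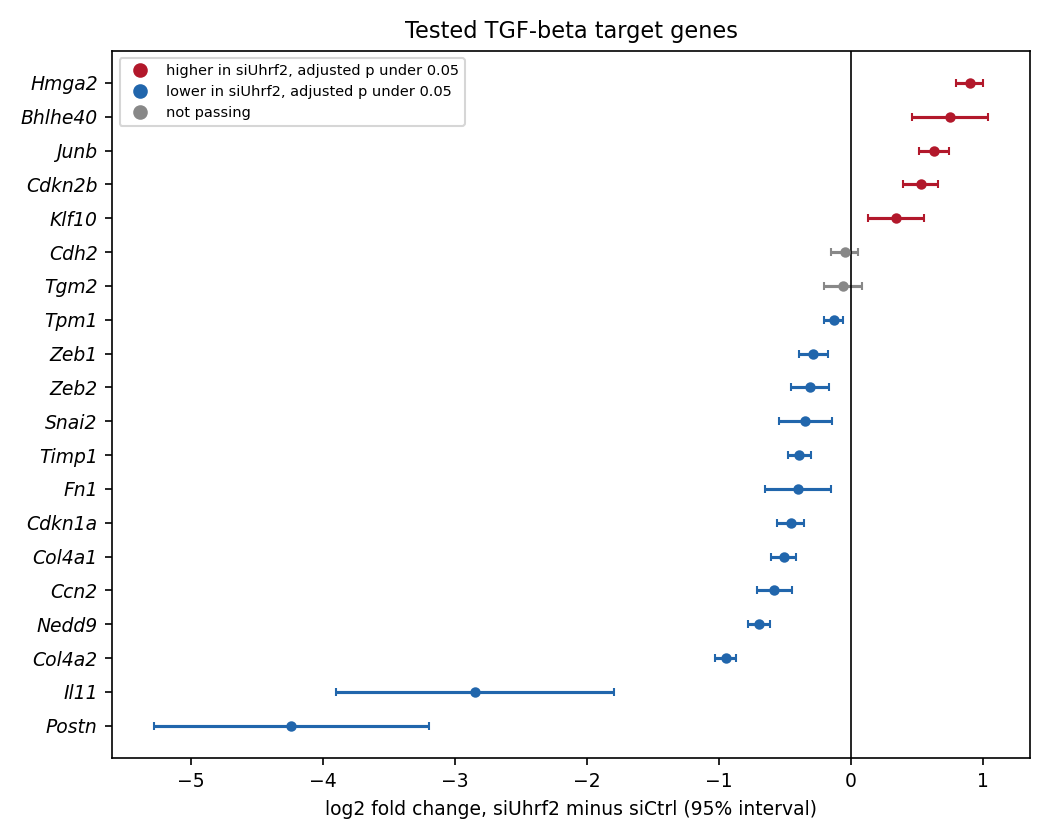
Log2 fold change, siUhrf2 minus siCtrl, of the 20 tested TGF-beta target genes with 95% intervals (n = 3 each), coloured as higher (red), lower (blue) or not passing (grey). The 5 risers lie between 0.34 and 0.90, and Postn and Il11 lie at -4.24 and -2.84, with the widest intervals.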

How the data were processed

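Total RNA of 6 AML12 libraries, 3 siUhrf2 and 3 siCtrl at 72 h, was sequenced on Illumina libraries, per the labels, and groups and replicate numbers come from the sample titles. For each gene and library the authors deposited a signal headed normalized count and one headed FPKM, per the file headers. Tools listed in the submitters' processing notes are kallisto 0.44.0 and edgeR, with the build GRCm38.p6, and the sources used here give neither their roles nor the normalization, strand use or filters. Normalized counts were not whole numbers: with 1 read worth 0.922 to 1.09 units, 63.0% to 64.9% of values above 0 were whole within 0.01 read, so no count test was run, and limma replaced it.

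Symbols and 1-based coordinates come from GENCODE M21, and 35574 of 35709 identifiers had a symbol. Values were put on a log2 scale from the deposited signal: limma 3.58.1 (R 4.3.3, statmod 1.5.0), with trend and robust variances, was fitted to log2(normalized count + 1) for the 11343 genes that averaged 1 FPKM or more, with Benjamini-Hochberg adjustment over all of them and a threshold of 0.05. Folds are 2 to the power of the log2 fold change, and the scale understates changes of low genes. Ratios between members use FPKM and got no test. Tested on counts simulated for this comparison over 11343 genes, the fit found 45 of 50 genes set to change 1.25-fold, 49 of 50 set to 1.5-fold, and made 199 calls, of which 5 were false. The simulated counts had the same dispersion for every gene, 50 changed genes at each fold and no deviant replicate 1. In the real libraries replicate 1 stood apart and 61.0% of tested genes were called, so the simulation does not give the error rate there.

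Members and gene lists were chosen with earlier results of these data known. All members are named. Of each pathway list, up to 4 called genes with the smallest adjusted p at a mean of at least 5 FPKM are named. Ccn2, Cdkn1a, Fn1, Postn, Il11, Cd109, Fkbp1a, Foxh1 and Skil were added after their values were seen. So were Snai2, Zeb1, Zeb2, Serpina1a, Col1a1 and members of counts of 5 or fewer. A gene of the target list is not reported here and was left out of its counts. Alternatives covered library scaling, pseudocount, filter, variance model, weights, a fold threshold, the replicate block and left-out libraries.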

Additional observations from a re-analysis of the deposited data

How the results depend on the processing

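All alternatives were run, but 7 genes (Acvr2b, Cd109, Foxh1, Fst, Lrrc32, Snai2 and Zeb2) average under 5 FPKM and have no value under that filter. Testing against a change of 1.2-fold, which by construction asks for more, called 1691 genes and 2 members in place of 6919 and 7. There Tgfb1 (0.17), Tgfb3 (-0.21), Tgfbr2 (-0.18), Tgfbr3 (0.19) and Smad7 (0.31) kept their log2 fold changes and lost their calls. Leaving out 1 library gave 6010 to 7047 genes and 5 to 7 members. Uhrf2, Tgfb2 and Tgfbr1 kept direction and call under all 20 alternatives, with log2 fold changes of -1.69 to -1.64, -0.56 to -0.49 and 0.45 to 0.57. Tgfb1 lay between 0.13 and 0.22 with 1 library left out. Tgfbr3 lay between 0.12 and 0.24 there, and lost its call on log2(FPKM + 1) (0.15, adjusted p = 0.063), without the filter (0.19, adjusted p = 0.052) and without replicate 1 of both groups (0.12). Smad3 and Smad4 had no stable sign. Smad3 was below 0 under quantile normalization (-0.013), equal totals (-0.013), log2(FPKM + 1) (-0.013), array weights (-0.015) and without replicate 1 of both groups (-0.0050), and -0.015 to 0.013 with 1 library left out. Smad4 was above 0 under upper quartile scaling (0.0059) and quantile normalization (0.0085), and -0.030 to 0.0013 with 1 library left out. For these, the cause was not tested.

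With the replicate number as a block, 7248 genes and 7 members were called, and Fn1 lost its call (adjusted p = 0.097), as it did without the filter (0.084). Same-numbered libraries correlated at 0.18, 0.24 and 0.066 in their deviations from the group means, so not every pair passed 0.1 and the numbers were not taken as pairs, although every library correlated best with its own number, a hint from the data and not from the design. Scalings moved the median log2 fold change of tested genes between -0.02 and 0.01. The named genes of the pathway lists, in part picked for a small adjusted p, kept direction and side of the threshold in 1042 of 1133 fits. They lost the call in 87, gained it in 2 (Tgm2) and changed sign in 2. Cdh2 changed sign, at 0.015 without siCtrl replicate 1 (-0.079 to 0.015 with 1 library left out) and 0.0021 without replicate 1 of both groups. The other genes of the lists were not followed singly. List counts moved by over 1.5 times in 7 of 140. The lowest depth of a member was 577 estimated reads.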

Other observations

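For Tgfb2, the member with the smallest adjusted p, the tested genes with the most similar log2 profile over the 6 libraries were Ubp1, Il17rc, B4galt7, Plgrkt and Gna11, with Pearson r between 0.998 and 0.9998. The libraries fall into the 2 groups compared, so r mostly reflects that contrast and is a description only. These genes changed by -0.36, -0.59, -0.29, -0.37 and -0.28 on the log2 scale, each lower in siUhrf2 like Tgfb2.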
